A study of Mus musculus with 12 samples.

Results

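The p53 target genes comprised 32 genes, taken as p53 itself, the regulators that feed back on it and established transcriptional targets in cell cycle arrest, cell death, DNA repair and stress metabolism, out of 30119 genes and unnamed features on the arrays. A probe belonged to the set when the name in the scanner files, or the current symbol behind its accession, was one of the 32; 41 probes did so, 40 of them through the accession. RNA came from sorted granulocyte-macrophage progenitors (GMP), the bone marrow cells that give rise to neutrophils and monocytes, and was hybridised to 12 one-colour arrays. Wild-type samples (wt, n = 4) carried Runx1+/+ with the Tg(vav-Cre) transgene, and knockout samples (ko, n = 4) carried Runx1fl/fl with the same transgene, in which Cre driven by the vav promoter deletes the floxed gene in blood cells. In the other two groups Runx1fl/fl-Tg(vav-Cre) marrow, taken 3 days after 150 mg/kg 5-fluorouracil, was infected with a MIG retrovirus carrying GFP and either ERt2, the tamoxifen-responsive ligand-binding domain alone (ERt2, n = 2), or RUNX1 fused to it (RUNX1-ERt2, n = 2), and was transplanted into lethally irradiated mice. GFP+ GMP were sorted 24 h after tamoxifen (49.5 µg/g on each of 3 days), given 6 weeks after transplantation. The labels of all 4 transplanted samples name tamoxifen, while the protocol text says that only part of the mice received it. The sources used here give neither the ages of the mice nor whether replicates were separate or pooled animals; p-values therefore cover the spread among these arrays, which may be technical. The wt and ko samples are called native below.

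p53 is a transcription factor that Mdm2 marks for degradation and Mdm4 holds inactive; DNA damage or oncogenic signals free it, and it then raises genes that stop the cell cycle, trigger apoptosis or repair DNA, together with Mdm2 itself, which closes the loop. In blood progenitors its best-known targets are Cdkn1a (p21), the inhibitor of cyclin-dependent kinases that holds cells in arrest, and Bbc3 (Puma), a BH3-only protein that starts mitochondrial apoptosis. Many of these genes also answer to other factors, and their RNA levels alone do not report p53 protein or activity.

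Promoter windows of RefSeq (GRCm38.p6, 250 bases before to 50 after each gene start) matched 24 of the 32 genes, with 36 windows; Ddb2, Perp, Pmaip1, Rrm2b, Tnfrsf10b, Trp53inp1, Xpc and Zmat3 were not matched. The p53 decamer, the consensus element that occurs in pairs in p53 response elements, was searched in these windows; it reads the same on both strands. It was present in 14 of the 36 windows (38.9%), belonging to 13 genes, against 8.36% of all 32851 windows. The RUNX hexamers TGTGGT and TGCGGT, searched on both strands, were present in 9 of the 36 (25.0%), against 22.4% of all windows. The 250 bases before the start are shown on the gene's strand for 4 genes that the results turn on, with each decamer in capitals. They are Cdkn1a, whose upstream start of 2 held 2 decamers (chr17:29090729-29090978, plus strand); Bax (chr7:45466899-45467148, minus strand) and Mdm2 (chr10:117710759-117711008, minus strand), with 1 decamer each; and Phlda3 (chr1:135765835-135766084, plus strand), with none. A match describes the letters only, and a window without one says nothing of elements elsewhere at the gene.
Cdkn1a: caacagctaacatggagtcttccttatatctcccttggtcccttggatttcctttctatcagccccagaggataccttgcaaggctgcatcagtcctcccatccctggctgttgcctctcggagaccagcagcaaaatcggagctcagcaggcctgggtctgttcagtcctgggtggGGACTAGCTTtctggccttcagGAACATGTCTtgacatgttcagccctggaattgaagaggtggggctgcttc
Bax: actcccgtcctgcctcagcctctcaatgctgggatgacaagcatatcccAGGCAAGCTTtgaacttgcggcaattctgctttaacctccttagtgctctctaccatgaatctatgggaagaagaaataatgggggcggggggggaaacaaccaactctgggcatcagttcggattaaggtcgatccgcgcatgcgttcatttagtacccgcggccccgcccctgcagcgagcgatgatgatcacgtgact
Mdm2: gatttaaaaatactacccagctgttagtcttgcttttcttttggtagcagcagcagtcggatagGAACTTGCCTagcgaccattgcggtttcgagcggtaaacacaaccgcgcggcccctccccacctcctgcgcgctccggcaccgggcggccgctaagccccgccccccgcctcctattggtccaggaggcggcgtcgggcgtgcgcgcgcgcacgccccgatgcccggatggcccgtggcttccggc
Phlda3: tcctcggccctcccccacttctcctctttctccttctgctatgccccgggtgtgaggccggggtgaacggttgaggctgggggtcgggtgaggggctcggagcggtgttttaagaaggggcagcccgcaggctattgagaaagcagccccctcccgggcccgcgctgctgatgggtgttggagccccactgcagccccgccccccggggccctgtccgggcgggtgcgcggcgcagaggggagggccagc

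The scanner software's well-above-background mark was given to 53.5 to 63.2% of probes on each array, and no spot was saturated. Median processed signals were 61.4 to 92.5 on the native arrays and 40.2 to 54.4 on the transplanted ones. The wt and ko replicates 1 and 2 shared 1 slide and replicates 3 and 4 another, with a different protocol name in the scanner software's headers. ERt2 and RUNX1-ERt2 were on separate further slides, so that slide and group cannot be told apart there. All 12 GMP markers were well above background on every array. The 2 Runx1 probes were higher in ko than in wt (brightest probe 1.69 ± 0.17, log2 difference ± SE, limma adjusted p = 0.00025) and lower in RUNX1-ERt2 than in ERt2 (fell by 1.09 ± 0.24, adjusted p = 0.0123); the files do not place them relative to the deleted part or to the RUNX1 of the vector, so they check neither label. Of the 32 p53 target genes, 30 passed the filter, which asked for that mark on all arrays of some group. Plk2, a polo-like kinase, reached that mark on 5 arrays (wt 3 and 4, ko 1, 3 and 4), and Eda2r, a death receptor, on 0 of 12. Because a gene that was high in only 1 group passed through that group, counts below refer to the 30 genes tested and not to all 32.

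Levels are log2 processed intensities minus the 75th percentile of the array, and differences are log2 differences from limma with their standard errors, fitted with a slide term across the 12 arrays and adjusted over 17905 genes (threshold 0.05). RUNX1-ERt2 was compared with ERt2 to see what returning RUNX1 to Runx1-deleted GMP did, and ko with wt to see what its loss did. The first comparison also holds the difference between the slides of its groups. In RUNX1-ERt2 a few arrest and death genes were several-fold higher, among them Cdkn1a, Phlda3 and Perp, while Trp53 and Mdm2 did not pass the test. Of the 30 genes, 6 rose in RUNX1-ERt2, where 10.2% of all genes did, and 3 fell, where 8.87% did. All 6 rises were at least 2-fold, a size reached by 5.67% of all genes, and 1 fall was, against 4.6%. The median difference was 0.21 over the 30 genes and 0.00 over all genes. In sorted bulk cells a larger share of cells with a gene and more RNA per cell cannot be told apart.

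Cdkn1a, whose brightest probe was well above background on all 12 arrays, rose among the arrest genes. It lay at -1.96, -1.15, -0.96 and -1.55 in wt, at -1.33, -1.99, -2.18 and -1.30 in ko, at -1.81 and -1.69 in ERt2 and at 1.10 and 0.87 in RUNX1-ERt2. The last pair stood above the other 10 arrays, which overlapped one another. The rise over ERt2 was 2.73 ± 0.37 (6.64-fold, adjusted p = 0.00113), while ko and wt differed by -0.30 ± 0.26 (adjusted p = 0.453). The array carried 3 probes for the gene on chromosome 17 of mm9, the files' build, at 29237377-29237436 (the probe above), 29235299-29235358 and 29227986-29228045. The other probes were also higher in RUNX1-ERt2 than in ERt2, in both cases against ERt2 arrays not well above background, so no size is given. The third, the most 5′ of them and listed under another transcript, was well above background on both RUNX1-ERt2 arrays (-3.86 and -3.82) and on 0 of the other 10. It passed the filter through RUNX1-ERt2 alone, so its higher level there is no separate support for the rise. The second was well above background on all arrays but those of ERt2; at -2.98 and -4.10 in RUNX1-ERt2 it lay within the native range of -6.02 to -2.16, and so did not repeat the step above the native arrays.

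Phlda3, a p53-induced inhibitor of Akt signalling, showed the same step at its single probe (mm9 chromosome 1, 137665642-137665701). Its levels were -0.79, -0.78, -0.78 and -0.96 in wt, -1.23, -1.02, -0.10 and -0.87 in ko, -0.39 and -1.13 in ERt2, and 2.41 and 2.00 in RUNX1-ERt2. Both RUNX1-ERt2 arrays again lay above all others, by 2.97 ± 0.34 over ERt2 (7.82-fold, adjusted p = 0.000403). Zmat3, a zinc finger protein that binds RNA and takes part in p53-dependent growth arrest, lay at -2.21, -2.44, -2.63 and -2.40 in wt and at -3.29, -3.43, -2.25 and -2.52 in ko. It was at -3.16 and -4.00 in ERt2 and at -1.11 and -0.90 in RUNX1-ERt2. Only the RUNX1-ERt2 pair stood clear of the wt range on the upper side, and the rise over ERt2 was 2.58 ± 0.37 (adjusted p = 0.00137).

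Perp, a membrane protein that takes part in p53-dependent apoptosis and in desmosomes, was at -0.72, -0.50, -0.65 and -0.72 in wt and at 0.94, 0.59, -0.40 and -0.18 in ko. It reached 0.38 and -0.17 in ERt2 and 2.09 and 2.67 in RUNX1-ERt2. All ko and transplanted arrays were therefore above the wt arrays, and the RUNX1-ERt2 arrays above all others, with a rise over ERt2 of 2.28 ± 0.33 (adjusted p = 0.0015). Bbc3 was lowest in wt (0.00, -0.15, 0.40 and 0.45) and higher in ko (1.14, 1.20, 0.99 and 1.82). ERt2 gave 1.42 and 0.66 and RUNX1-ERt2 1.84 and 2.36. The last pair did not overlap ERt2, and the rise was 1.06 ± 0.31 (adjusted p = 0.0426). This call was lost without ERt2 replicate 2 (0.68, adjusted p = 0.241) and without RUNX1-ERt2 replicate 1 or 2 (1.32 and 0.80, adjusted p = 0.0521 and 0.221); over its 15 alternatives the adjusted p ran from 0.0173 to 0.241.

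Gtse1, a protein of dividing cells that binds p53 and restrains it in G2, passed in every comparison. It lay at 0.01, 0.14, -0.36 and -0.65 in wt, at -0.74, -0.46, -0.88 and -1.58 in ko and at -3.61 and -3.51 in RUNX1-ERt2, and was not well above background in ERt2. RUNX1-ERt2 was thus at least 3.09-fold above ERt2 (limma adjusted p = 1.5e-05), and still below every native array. For this bound the mean of the brighter group was divided by the dimmest signal still marked as well above background on the dimmer arrays. Gtse1 had 1 probe. Cdk1, the mitotic kinase, had 3 probes: the brightest dropped from 1.37, 1.55, 0.84 and 0.25 in ko to -4.11 and -3.62 in ERt2, with -0.77 and -0.78 in RUNX1-ERt2. Another lay between -2.85 and -0.86 on the native arrays and was well above background on 0 of the 4 transplanted arrays, ERt2 and RUNX1-ERt2 alike. The dimmest Cdk1 probe stayed between -4.99 and -3.54 on all 12 arrays, and Mki67, the proliferation marker, lay between 4.14 and 5.14 on all 12. What these probe differences contribute to the Gtse1 values was not tested.

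**Figure D1:**
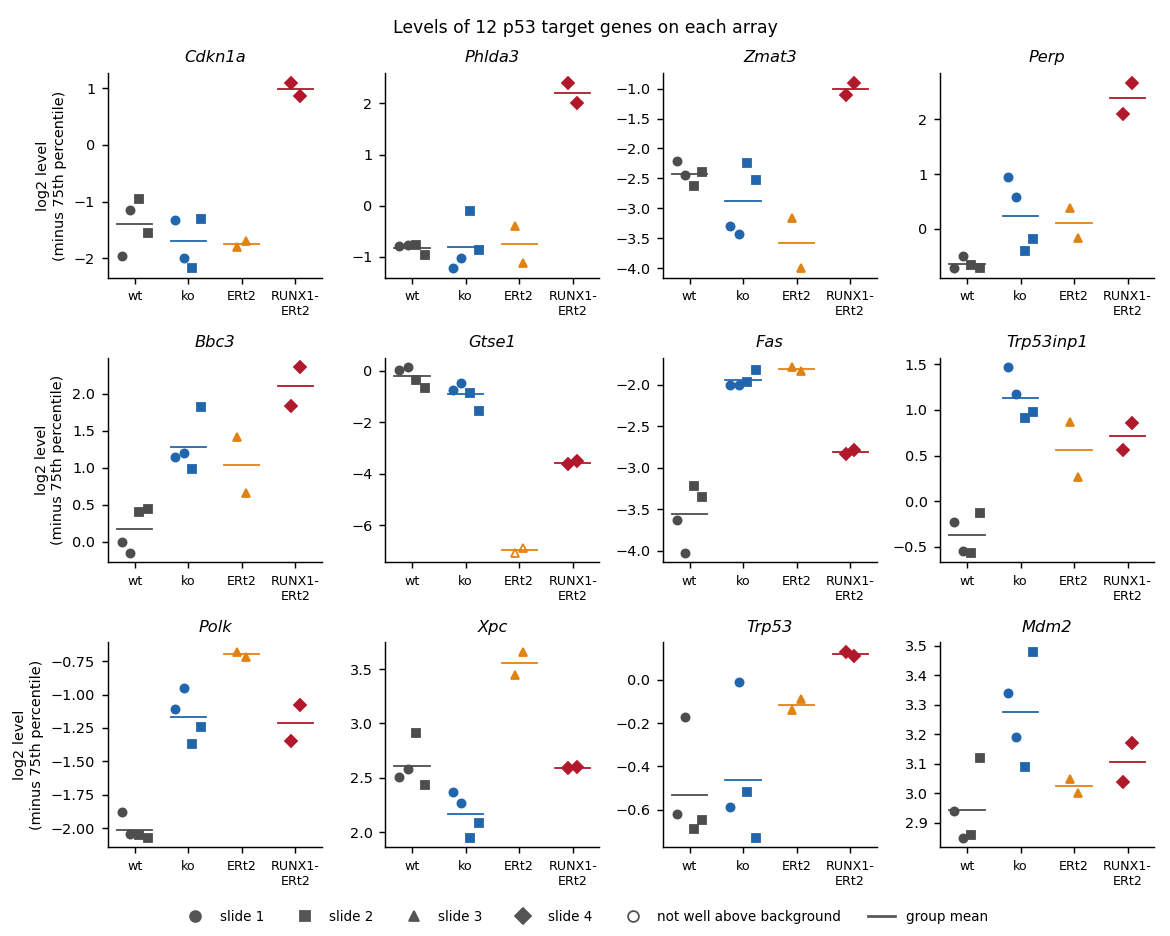
Log2 level minus the 75th percentile of the array (y axis, one scale per gene) of 12 p53 target genes on each array (points; shape gives the slide, open points were not well above background) in the 4 groups, with group means as lines. Cdkn1a and Phlda3 sit apart in RUNX1-ERt2, at 0.87 to 1.10 and 2.00 to 2.41. Fas sits at -2.01 to -1.79 in ko and ERt2, at -4.03 to -3.22 in wt, and between them in RUNX1-ERt2, at -2.84 to -2.79.

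**Figure D2:**
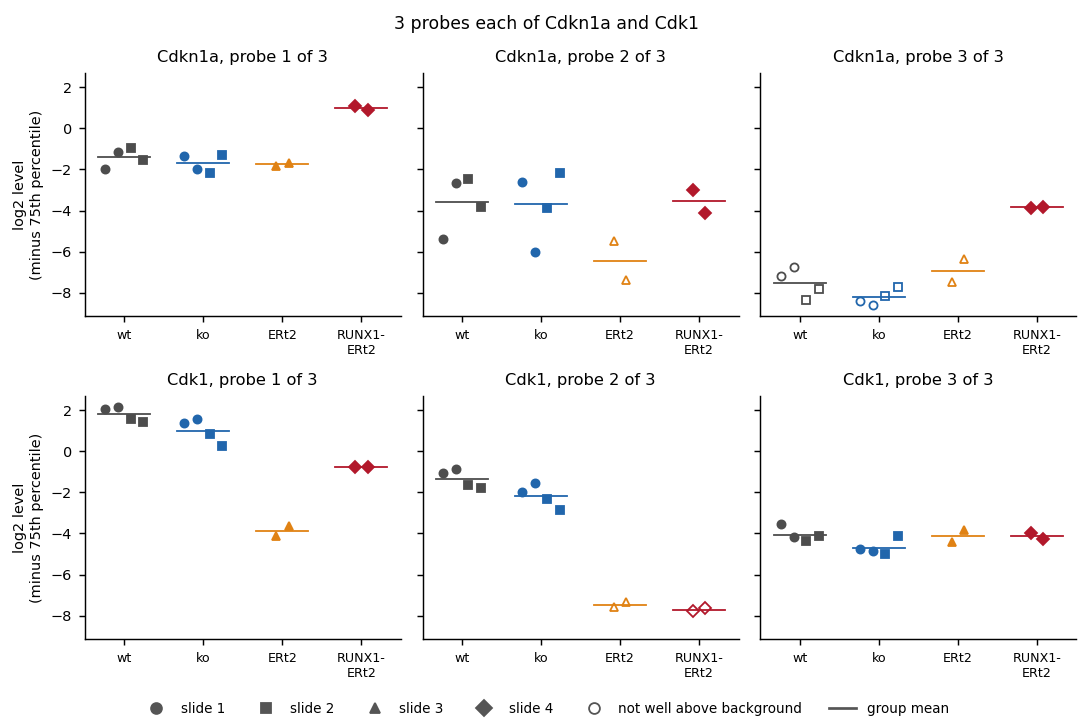
Log2 level minus the 75th percentile (y axis, shared) of the 3 probes each of Cdkn1a and Cdk1 on each array, ordered by mean level. All 3 Cdkn1a probes were higher in RUNX1-ERt2 than in ERt2. The second of them lay within its native range, and the third passed the filter through RUNX1-ERt2 alone. The 3 Cdk1 probes differed from each other between native and transplanted arrays.

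The 3 genes lower in RUNX1-ERt2 than in ERt2 were a death receptor and a pair of repair genes. Fas, the death receptor of the TNF receptor family, lay at -3.63, -4.03, -3.22 and -3.35 in wt, -2.01, -2.0, -1.97 and -1.82 in ko, -1.79 and -1.84 in ERt2, and -2.84 and -2.79 in RUNX1-ERt2. It fell by 1.00 ± 0.17 against ERt2 (adjusted p = 0.00345), to levels between those of ko and wt. Normexp background correction ended this call (fell by 0.77, adjusted p = 0.194). Xpc, the damage sensor of nucleotide excision repair, was at 3.45 and 3.66 in ERt2 and at 2.59 and 2.60 in RUNX1-ERt2, a fall of 0.96 ± 0.18 (adjusted p = 0.0067). Polk, a translesion polymerase, moved from -0.68 and -0.72 to -1.35 and -1.08 (fell by 0.52 ± 0.13, adjusted p = 0.0213). The Polk call was lost without either ERt2 replicate or RUNX1-ERt2 replicate 1 (adjusted p = 0.0919, 0.0709 and 0.131), and ranged from 0.0176 to 0.174 over 15 alternatives; its second probe differed by -0.34 ± 0.16.

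The remaining 21 genes tested did not pass in RUNX1-ERt2 against ERt2, among them the p53 core and the classical death effectors. Trp53, encoding p53, was at -0.14 and -0.09 in ERt2 and at 0.13 and 0.11 in RUNX1-ERt2 (0.23, 95% interval -0.22 to 0.68). Mdm2, the p53 ligase and itself a target, was at 3.05 and 3.00 against 3.04 and 3.17 (0.08, interval -0.26 to 0.41). These intervals leave out a doubling of either gene. Ccng1 (cyclin G1, which recruits phosphatase to Mdm2) came close, at 0.48 and 0.35 against 1.16 and 1.03 (0.68 ± 0.21, adjusted p = 0.0557). Bax, the pore-forming death effector, did so too, at 2.40 and 2.53 against 3.08 and 2.77 (0.45 ± 0.14, adjusted p = 0.0532). In neither gene did the groups overlap, as held for 14 of the 30 genes with RUNX1-ERt2 above and 7 below, where 29.1% and 29.8% of all genes did. Of the other death genes, Pmaip1 (Noxa, a BH3-only protein) differed by -0.26 ± 0.31, Bid (the BH3 protein cleaved by caspase 8) by -0.52 ± 0.22, Apaf1 (the apoptosome scaffold) by -0.06 ± 0.13 and Tnfrsf10b (the TRAIL receptor) by 0.10 ± 0.17. Aen, Ei24 and Trp53inp1 differed by 0.23 ± 0.15, 0.37 ± 0.17 and 0.14 ± 0.25. Among the regulators, Mdm4 (the Mdm2 relative that masks p53) differed by -0.19 ± 0.46, Ppm1d (the Wip1 phosphatase, which dephosphorylates p53) by 0.16 ± 0.13 and Pml by 0.28 ± 0.12. Plk3 differed by 0.79 ± 0.66 and Ckap2, a spindle protein, by 0.20 ± 0.17. Ddb2, the UV damage sensor, differed by 0.30 ± 0.21, Ak1 by 0.13 ± 0.22, Sesn1 (a sestrin that restrains mTORC1) by -0.35 ± 0.20 and Gdf15 (a stress cytokine) by 0.21 ± 0.65. Rrm2b was not well above background in either group.

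By role, 2 of 4 arrest and cell cycle genes rose (Cdkn1a and Gtse1), and of 12 death genes 3 rose and 1 fell. Of 4 repair genes 2 fell, and of 4 stress genes 1 rose (Zmat3). Of 6 regulators 0 passed limma's adjusted threshold, while 1 (Ccng1) had an unadjusted p under 0.05. Over all genes 10.2% rose and 8.87% fell at the adjusted threshold, the shares to set beside the adjusted counts here and those of markers below. At an unadjusted limma p under 0.05, 2960 of 17905 genes were higher and 2693 lower, to set beside the unadjusted counts. Median differences were 1.76 for arrest and cell cycle, 0.19 for death, -0.39 for repair, 0.17 for stress and 0.19 for the regulators. The first counts Gtse1 at an estimate against ERt2 arrays not well above background, so its size is no measure. The repair median counts Rrm2b, which was not well above background in either group. The roles were set by known function, and the groups are too small for more than these counts. Cell type markers moved with the same comparison: Vpreb1 of the surrogate light chain rose by 5.86 ± 0.45, Cd79b of the B-cell receptor complex fell by 0.75 ± 0.17, and its partner Cd79a differed by 0.48 ± 0.34. Ebf1 and Pax5, transcription factors that define B cells, were well above background on 0 arrays of either group. Of 5 basophil and mast cell markers 2 rose (Prss34 by 3.29 ± 0.79 and Ms4a2 by 2.71 ± 0.28) and 1 fell, at a summed level of 4.85 to 5.49 in ERt2 and 5.09 to 5.49 in RUNX1-ERt2. Of 7 erythroid markers tested 1 rose, with a median difference of 1.93 and 3 at an unadjusted p under 0.05, at summed levels of 6.28 to 7.10 and 6.47 to 6.66. The summed GMP marker level went from 9.96 to 10.14 in ERt2 to 9.02 to 9.50 in RUNX1-ERt2, with 5 of 12 falling. Of 6 T and NK cell markers 1 rose and 1 fell, at summed levels of 5.18 to 5.61 in ERt2 and 3.89 to 3.99 in RUNX1-ERt2. The part of these markers in the rises of p53 target genes was not tested.

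On loss of Runx1 in native GMP the largest rise, 1.61 for Fas, was below those of Cdkn1a, Phlda3, Zmat3 and Perp in RUNX1-ERt2. Fas, Trp53inp1 and Polk, among others, differed more in ko against wt than in RUNX1-ERt2 against ERt2. The genes called were partly others. Of the 30 genes, 9 rose in ko, where 11.5% of all genes did, and 4 fell, where 13.8% did; the median difference was 0.10 over the 30 genes and -0.05 over all genes. Groups did not overlap for 7 of the 30 with ko above (10.1% of all genes) and for 3 with ko below (13.2%). Death genes made up 5 of the 9 rises and 12 of the 30 genes tested. Another 2 of them fell, and their median difference was -0.02. Of the 4 arrest genes 1 fell, with a median of -0.31. With the array median in place of the 75th percentile the split was 8 and 1, and with quantile normalization 9 and 1, so that most of the falls were called under the 75th percentile and not under those scalings.

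Fas changed most. Its ko arrays lay above all wt arrays, with a rise of 1.61 ± 0.12 (3.04-fold, adjusted p = 5.62e-05), of 1.82 on slide 1 and 1.39 on slide 2. It was the one member that passed in each of the 21 alternatives, with adjusted p up to 0.0467. Trp53inp1, a stress protein that promotes p53-dependent death and autophagy, lay at -0.23, -0.55, -0.57 and -0.13 in wt and at 1.47, 1.17, 0.91 and 0.98 in ko. These groups were 1.50 ± 0.18 apart (adjusted p = 0.000611; 1.71 and 1.29 on the slides), and the second Trp53inp1 probe differed by 0.91 ± 0.21. Polk rose by 0.84 ± 0.09 (adjusted p = 0.000388), from -1.88, -2.04, -2.05 and -2.07 in wt to -1.11, -0.95, -1.37 and -1.24 in ko; its other probe differed by 0.46 ± 0.11. Bbc3 rose by 1.11 ± 0.22 (adjusted p = 0.00713; 1.24 and 0.98 on the slides).

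Apaf1, at -1.10, -1.05, -0.94 and -1.26 in wt and -0.58, -0.72, -0.42 and -0.61 in ko, rose by 0.51 ± 0.10 (adjusted p = 0.00581), again without overlap. Perp rose by 0.89 ± 0.23 (adjusted p = 0.0234), unevenly over the slides (1.38 and 0.39); with replicate number as a block it did not pass (adjusted p = 0.0714), nor without wt replicate 1 or 2 or ko replicate 1 or 2. Smaller rises were those of Ak1, an adenylate kinase (0.57 ± 0.16), Pml, the scaffold of nuclear bodies where p53 is modified (0.37 ± 0.09), and Mdm2 (0.33 ± 0.11, adjusted p = 0.0464), from 2.94, 2.85, 2.86 and 3.12 to 3.34, 3.19, 3.09 and 3.48. The Mdm2 groups overlapped by 1 array, and leaving out any of 6 arrays ended the call (wt 1, 2 or 3, ko 1, 2 or 4). Pml lay at 1.76, 1.84, 1.85 and 1.65 in wt and at 2.14, 2.18, 2.21 and 2.06 in ko, without overlap, and its second probe differed by 0.69 ± 0.11. Pml did not pass without wt replicate 1, nor Ak1 without wt replicate 1, 2 or 3 or ko replicate 1 or 4.

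The 4 genes that fell in ko changed by less than 2-fold. Gtse1 fell by 0.70 ± 0.15 (adjusted p = 0.0106). In the same comparison 13 of 15 mitosis and proliferation genes fell, with a median of -0.61. Bax fell by 0.31 ± 0.10 (adjusted p = 0.0493), Aen, an exonuclease that aids apoptosis, by 0.41 ± 0.11 (adjusted p = 0.0247) and Xpc by 0.44 ± 0.13 (adjusted p = 0.0369). With replicate number as a block the last 3 did not pass (adjusted p = 0.109, 0.0659 and 0.0794), and each was also lost without wt replicate 1 or 2 or ko replicate 2 or 4, Bax and Aen without ko replicate 1, Bax without wt replicate 4 and Xpc without ko replicate 3. Aen lay at 3.78, 3.78, 3.78 and 3.82 in wt and at 3.11, 3.23, 3.73 and 3.46 in ko, and Xpc at 2.51, 2.58, 2.91 and 2.43 against 2.37, 2.27, 1.95 and 2.08. Neither pair of groups overlapped. Cdkn1a, Phlda3, Zmat3, Trp53, Ccng1 and Pmaip1 did not pass, with differences of -0.30, 0.02, -0.45, 0.07, 0.22 and -0.23. The other genes that did not pass were Mdm4, Ppm1d, Ckap2, Bid, Tnfrsf10b, Ei24, Ddb2, Rrm2b and Sesn1, between -0.32 (Ckap2) and 0.24 (Rrm2b); Ckap2 passed with the block (adjusted p = 0.0382). Zmat3 differed between slides (-1.04 and 0.13). Plk3, a stress-responsive polo-like kinase, and Gdf15 had the widest spread: Plk3 ran from -2.87 to -0.30 in wt and from -2.46 to 1.13 in ko (0.83 ± 0.47), and Gdf15 from -4.56 to -2.37 and from -3.71 to -1.02 (0.99 ± 0.46). Cell type markers moved here too. Of the 12 GMP markers 1 rose and 5 fell (median -0.61), at a summed level of 9.36 to 9.84 in wt and 8.79 to 9.18 in ko. Of 7 megakaryocyte markers 4 rose, at 3.12 to 3.80 in wt and 4.70 to 5.11 in ko, and of 5 stem cell markers tested 3 rose and 1 fell, at 0.99 to 1.67 and 1.95 to 2.23. Of 5 basophil and mast cell markers 4 fell and 1 rose, Cpa3 (1.92 ± 0.24); the summed level was 4.22 to 4.49 in wt and 4.78 to 5.84 in ko, while Fcer1a, which defines the lineage, was well above background on 0 ko arrays. Of 6 T and NK cell markers 2 fell, at a summed level of 4.33 to 5.11 in wt and 3.07 to 3.73 in ko. Of 7 erythroid markers tested 2 rose and 1 fell, at 4.07 to 5.06 in wt and 4.19 to 5.75 in ko. The part of these markers was not tested.

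**Figure D3:**
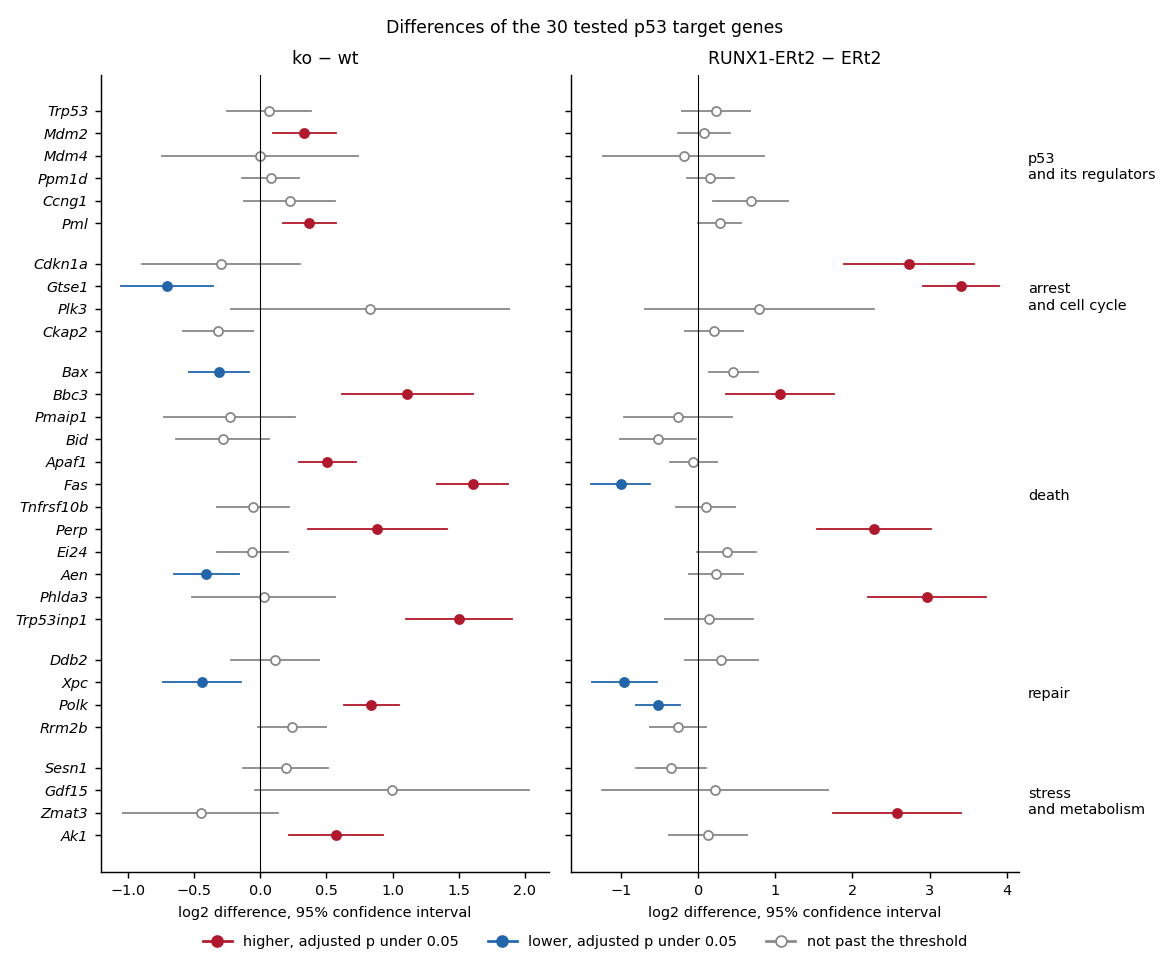
Log2 difference (x axis) with its 95% confidence interval for the 30 tested p53 target genes, grouped by role (y axis), in ko against wt (left) and RUNX1-ERt2 against ERt2 (right); filled points passed an adjusted p of 0.05. On the left Fas (1.61) and Trp53inp1 (1.50) lie farthest right, and on the right Gtse1 (3.41, an estimate against a group at background), Phlda3 (2.97) and Cdkn1a (2.73).

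The comparisons of ko with wt and of RUNX1-ERt2 with ERt2 share no array, so their RUNX1 contrasts can be set side by side. These are wt minus ko in native samples and RUNX1-ERt2 minus ERt2 in transplanted ones, and their difference was tested. The second contrast also holds the difference between the ERt2 and RUNX1-ERt2 slides, which cannot be told apart from it. The contrasts differed for 10 of the 30 genes. They were higher in the transplanted samples for 9 (9.42% of all genes) and lower for 1 (8.75%). The direction turned for Bbc3 and Perp, which were higher in ko than in wt and in RUNX1-ERt2 than in ERt2. For Bbc3 the contrast was -1.11 in native and 1.06 in transplanted samples (difference 2.17 ± 0.38, limma adjusted p = 0.00498). For Perp it was -0.89 and 2.28 (3.16 ± 0.40, adjusted p = 0.00102). Of all genes, 0.799% (143) rose in both comparisons. Xpc fell in both, with contrasts of 0.44 and -0.96 (difference -1.40 ± 0.23, limma adjusted p = 0.0034), as did 1.22% of genes. Cdkn1a, Phlda3 and Zmat3 passed in the transplanted samples and not in the native ones, and their contrasts differed by 2.43 ± 0.46, 2.99 ± 0.41 and 2.12 ± 0.45 (adjusted p = 0.00691, 0.00153 and 0.0118). Trp53inp1 had the reverse pattern, with contrasts of -1.50 and 0.14 (difference 1.64 ± 0.31, limma adjusted p = 0.00678).

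Fas and Polk were the members that were higher in ko than in wt and lower in RUNX1-ERt2 than in ERt2, as 439 genes (2.45%) were. Their contrasts were -1.61 and -1.0 for Fas and -0.84 and -0.52 for Polk, and the differences between settings did not pass (0.60 ± 0.21, adjusted p = 0.0769, and 0.32 ± 0.16, adjusted p = 0.202). Gtse1 was lower in ko than in wt and higher in RUNX1-ERt2 than in ERt2, as 376 genes (2.10%) were, with the bound described above. Of the 30 genes, 14 passed in neither comparison, as did 62.1% of all genes.

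**Figure D4:**
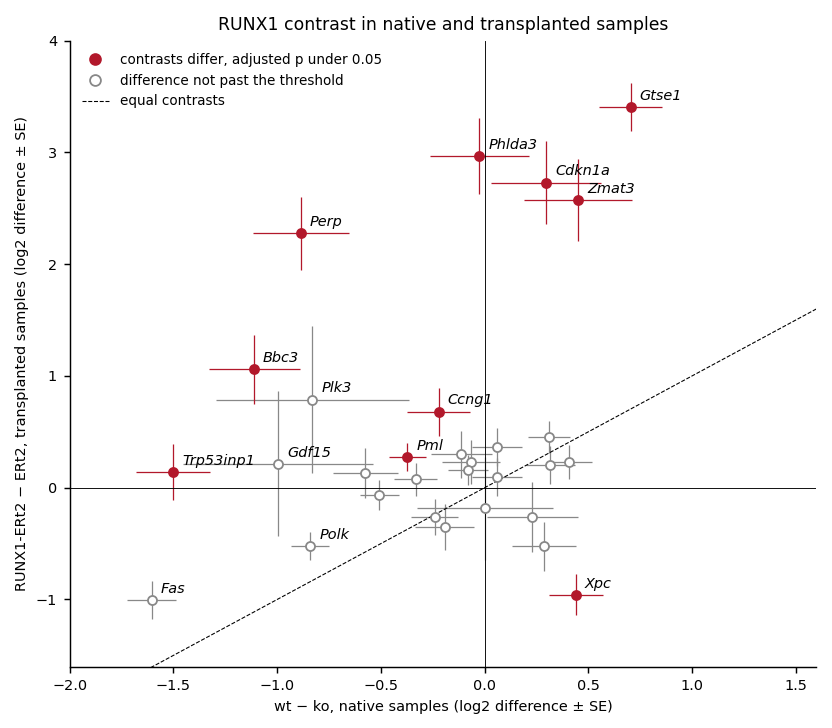
RUNX1 contrast of each tested p53 target gene in native samples (x axis, wt minus ko) and in transplanted samples (y axis, RUNX1-ERt2 minus ERt2), as log2 differences ± SE; red points differ between the settings at an adjusted p under 0.05 and the dashed line marks equal contrasts. Perp (-0.89 and 2.28) and Bbc3 (-1.11 and 1.06) lie in the upper left. Fas (-1.61 and -1.0) lies in the lower left, 0.60 ± 0.21 above the dashed line, a difference not past the threshold.

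ERt2 against ko sets transplanted against native GMP, both from Runx1fl/fl-Tg(vav-Cre) marrow, and so also differs by 5-fluorouracil, retroviral infection, irradiated hosts, tamoxifen and slide, which cannot be told apart; it shares its arrays with the comparisons above. Of the 30 genes 5 were higher in ERt2, where 30.2% of all genes were, and 7 lower, where 26.7% were. Arrays did not overlap for 5 with ERt2 above (33.9% of all genes) and for 8 with ERt2 below (29%). With the array median as the scale, which moved the median of all genes from 0.06 to 0.25, the split was 8 and 4. Xpc rose by 1.39 ± 0.16, Pmaip1 by 1.35 ± 0.27, Bid by 0.92 ± 0.19, Aen by 0.67 ± 0.13 and Polk by 0.47 ± 0.11. Of the 12 GMP markers 9 rose in the same comparison (median 1.52). So did 10 of 15 mitosis genes, with 2 falling, and 3 of 5 basophil and mast cell markers. In turn 3 of 7 megakaryocyte and 4 of 5 stem cell markers fell, and of 6 T and NK cell markers 1 rose and 3 fell. The part of these genes was not tested. Pmaip1 stood at -2.01, -1.87, -2.18 and -2.04 in ko, at -0.68 on both ERt2 arrays, and at -0.47 and -1.42 in RUNX1-ERt2. Its 4 transplanted arrays lay above all 8 native ones.

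Gtse1 was at least 19.2-fold lower in ERt2 than in ko, and Rrm2b, the p53-inducible subunit of ribonucleotide reductase, at least 2.53-fold lower (adjusted p = 1.41e-08 and 7e-08). Rrm2b ranged from -4.49 to -3.74 over the 8 native arrays and was well above background on 0 of the 4 transplanted arrays. The same held for 508 (2.41%) of 21086 probes well above background on all native arrays, and for 48 (0.327%) of the 14681 among them with a native mean above -2, brighter than Rrm2b; the part of such probes in the result was not tested. With normexp its difference shrank to -0.84 (adjusted p = 0.0845). Gdf15 fell by 2.18 ± 0.56 and Plk3 by 1.82 ± 0.57. At the brightest probe, Trp53inp1 (0.57 ± 0.22), Ei24, an autophagy protein of the endoplasmic reticulum (0.53 ± 0.15), and Pml (0.48 ± 0.11) fell by less than 2-fold. The second Trp53inp1 probe showed no fall (-0.005 ± 0.25), and the second Pml probe a larger one (-1.075 ± 0.13). Gdf15, Ei24 and Pml did not pass without ERt2 replicate 2 and Trp53inp1 without that or any ko replicate; Plk3 did not pass without either ERt2 replicate or ko replicate 1 or 4. With replicate number as a block neither Plk3 nor Trp53inp1 passed (adjusted p = 0.0582 and 0.0645). The pair of Mdm4 probes disagreed here (0.69 ± 0.40 for the brighter and -0.92 ± 0.26), so no direction is given. Trp53 differed by 0.35 ± 0.17 (adjusted p = 0.106, and 0.0252 with the block), Cdkn1a by -0.05 ± 0.32 and Phlda3 by 0.04 ± 0.29.

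**Figure D5:**
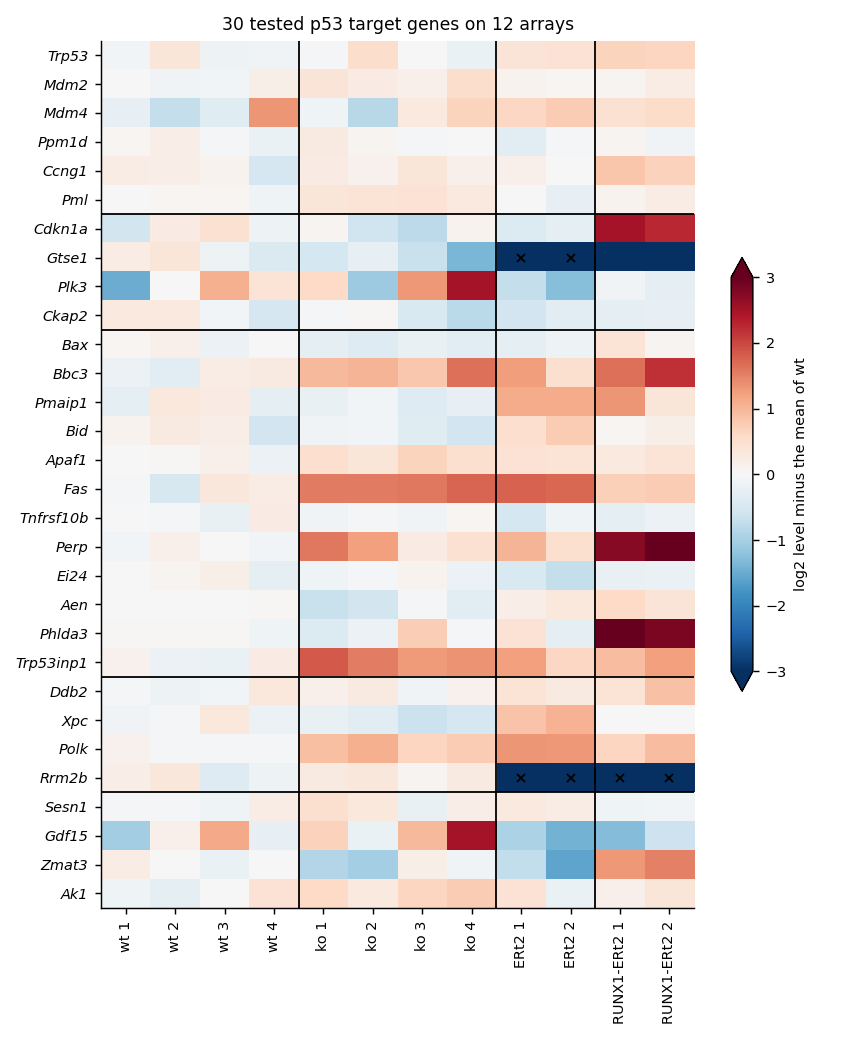
Log2 level minus the wt mean (colour, capped at -3 and 3) of the 30 tested p53 target genes (rows, by role) on the 12 arrays (columns, by group); crosses mark values not well above background. Phlda3, Perp and Cdkn1a are the deep red rows of RUNX1-ERt2. Fas is red in ko and ERt2 and paler in RUNX1-ERt2, while Trp53inp1 is red in ko, ERt2 and RUNX1-ERt2. Rrm2b is crossed on all 4 transplanted arrays.

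Other genes of the pathway were taken from 6 lists. They were described by counts only, beside the share of all genes called given above. Of 20 p53 modifiers and partners, 3 rose and 1 fell in ko, and 1 rose in RUNX1-ERt2. That one was Cdkn2a, whose locus encodes Arf, which releases p53 from Mdm2, and the kinase inhibitor p16Ink4a. Its brighter probe was at -8.18, -7.51, -5.10 and -7.60 in wt, well above background on 1 of those 4 arrays, at -4.50, -5.24, -3.27 and -3.17 in ko, -2.24 and -3.02 in ERt2, and 0.06 and -0.06 in RUNX1-ERt2. It rose in RUNX1-ERt2 against ERt2 (2.63 ± 0.66, adjusted p = 0.0234). It also passed in ko against wt (adjusted p = 0.00227), but with 3 of 4 wt arrays not well above background no size is given. The other Cdkn2a probe was well above background on the RUNX1-ERt2 arrays alone, at -4.15 and -4.71. The ubiquitin ligase Rchy1 rose by 0.43 ± 0.09 and the p53 partner Ppp1r13b by 0.59 ± 0.14 in ko.

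Of 17 DNA damage signalling genes tested, 3 fell in ko, with H2ax, the histone variant phosphorylated at breaks, falling by 0.62 ± 0.13. In RUNX1-ERt2, 1 rose, Nbn of the MRN complex (0.73 ± 0.15). Of 23 other p53 targets tested, 3 rose and 3 fell in ko, and 5 rose and 3 fell in RUNX1-ERt2. The sestrin Sesn2 rose in both (0.53 ± 0.10 and 0.75 ± 0.15), Siva1 fell in ko by 0.67 ± 0.11, and the tetraspanin gene Cd82 fell in RUNX1-ERt2 by 1.42 ± 0.27. Of 25 Bcl2 family and caspase genes tested, 6 rose and 4 fell in ko: the BH3-only gene Bmf rose by 2.05 ± 0.20 and the survival gene Bcl2l1 (Bcl-xL) by 1.28 ± 0.11, while Bcl2 fell by 1.64 ± 0.20. In RUNX1-ERt2, 4 rose, with the executioner Casp6 at 0.98 ± 0.17, and 3 fell, with the caspase 8 inhibitor Cflar falling by 0.94 ± 0.17 and Birc3 by 0.85 ± 0.17. Of 22 excision repair and polymerase genes, 1 rose and 5 fell in ko, and 1 each rose and fell in RUNX1-ERt2, the glycosylase gene Ogg1 (1.04 ± 0.12) and Rev3l of polymerase zeta (fell by 0.59 ± 0.11). Of the 15 mitosis genes 1 passed in RUNX1-ERt2, Cdk1 at its brightest probe (3.09 ± 0.22), a rise that neither of its other probes, described above, showed.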

How the data were processed

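GMP RNA was labelled with Cy3 and hybridised to Agilent arrays, 1 sample each, per the labels' protocols. The deposited spot intensity values are Feature Extraction processed signals, from which background and a spatial trend had been taken per the file headers, and were not scaled between arrays; the submitters' processing notes name version 9.1 and the headers another. The authors' series matrix holds ratio values, which matched the same signal divided by the array median (column medians 0.91 to 0.94); its wt and ko columns matched other replicates of their group (1 with 3, 2 with 4), so it served as an alternative only. Control spots and spots marked as outliers (129 to 207 per array) were left out and log2 was taken, minus each array's 75th percentile. A probe was tested if well above background throughout 1 group, and the brightest probe stood for each symbol. Names came from RefSeq (GRCm38.p6, names and promoter windows only); probe positions are the files' (mm9).

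Group means and a slide term (replicates 1 and 2 against 3 and 4 of wt and ko) were fitted over 12 arrays with limma 3.58.1 in R 4.3.3, with 7 residual and 2.11 prior degrees of freedom; P-values were Benjamini-Hochberg adjusted over 17905 genes (threshold 0.05). The scripts were tested on simulated data. Same-numbered wt and ko arrays deviated together from their group means (correlations 0.373, 0.354, 0.177 and 0.674), so block values are given where they change a call in wt or ko. Part of this is the slide: with slide means removed the correlations were -0.0271, -0.0271, 0.43 and 0.431, and differently numbered arrays of the first slide had 0.317 and 0.451. The number of arrays limits the precision. All 32 members are named, and of each pathway list the genes past the threshold with the smallest p, up to 3. The members and lists were chosen with earlier results of these data known. The alternatives were normexp (offset 50), quantile, array-median and matrix values, other filters and designs, mean of probes, single slides and leaving out each array. One cell type marker is not reported here.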

Additional observations from a re-analysis of the deposited data

Results flagged for a closer look

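Among 60 groups of 4 arrays (30 genes in wt and in ko), 5 had 1 array far from the rest relative to the group's range; chance alone flags about 1 in 20 groups. Trp53 was at -0.17 in wt replicate 2, against -0.69 to -0.62 on the other wt arrays. Ccng1 was at -0.18 in wt replicate 4, against 0.44 to 0.55. Phlda3 was at -0.96 in wt replicate 4, against -0.79 to -0.78, and Aen at 3.82 in wt replicate 4, against 3.78. Polk was at -1.88 in wt replicate 1, against -2.07 to -2.04.

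The RUNX1 contrast differed between transplanted and native samples, by limma's interaction test, for 10 genes, each 1 of 30 tested. The difference (transplanted minus native) was 3.16 for Perp, 2.99 for Phlda3, 2.43 for Cdkn1a, 2.17 for Bbc3, 2.12 for Zmat3, 1.64 for Trp53inp1, 0.90 for Ccng1, 0.65 for Pml and -1.40 for Xpc. That of Gtse1 was fitted as 2.70 against ERt2 arrays not well above background, so its size is no measure, and the call was lost with normexp (0.30, adjusted p = 0.633). Ccng1 had contrasts of -0.22 in native and 0.68 in transplanted samples, neither past the threshold alone, and Pml of -0.37 and 0.28. The Ccng1 difference (adjusted p = 0.0434) was lost without any 1 of 9 arrays (wt 1 or 2, ko 1, 3 or 4, and each transplanted array). The Pml difference was lost without ERt2 replicate 2 or RUNX1-ERt2 replicate 2, and so was that of Zmat3.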

How the results depend on the processing

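Over the 25 alternatives no called difference changed sign. Calls kept in every alternative that gave a value were 1 of 13 in ko against wt (Fas), 6 of 9 in RUNX1-ERt2 against ERt2 (Cdkn1a, Gtse1, Perp, Phlda3, Xpc and Zmat3), 5 of 12 in ERt2 against ko (Aen, Bid, Gtse1, Pmaip1 and Xpc) and 6 of 10 differences of the RUNX1 contrast. Rises in ko numbered 9; they were 5 with normexp and 1 on slide 2 alone, and 5 to 9 when 1 array was left out, the lowest without wt replicate 1. Falls in ko numbered 4; they were 1 with normexp, quantile, array-median scaling, no filter on dim probes or no slide term, 2 with the replicate block, 0 on slide 2 alone (2 arrays a group, where limma called 1.12% of genes lower), and 1 to 5 when 1 array was left out (1 without wt replicate 1 or 2 or ko replicate 2 or 4, 2 without ko replicate 1). In RUNX1-ERt2 the falls numbered 1 with normexp, and leaving out 1 array gave 5 to 6 rises and 2 to 3 falls. In ERt2 against ko, the array median gave 8 rises and 4 falls and normexp 2 falls; leaving out 1 array gave 5 to 6 rises and 2 to 8 falls, the lowest without ERt2 replicate 2.

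With the replicate block ko had 8 rises and 2 falls, and Ckap2 passed (-0.32, adjusted p = 0.0382). The transplanted arrays share only a number (correlation -0.19); there the block gave 5 rises and 2 falls, without Bbc3 and Polk (adjusted p = 0.0777 and 0.0588), and crossed numbers, chosen after seeing the data, 6 and 3. In ERt2 against ko it gave 6 rises and 5 falls. With the block the RUNX1 contrast of Bid also differed between settings (-0.81, adjusted p = 0.0379, from 0.0687). Normexp shrank the Gtse1 difference in RUNX1-ERt2 to 0.93. The causes were not tested. With 2 arrays a group and signals near background for Gtse1, Rrm2b and Cdkn2a, only large differences could be resolved.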
